A study of Mus musculus with 4 samples.

Results

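The RNA described here came from the lung tumours of CD109+/+ KP mice, the group of the study with an intact Cd109 gene, and was measured on 2 arrays out of the 4 of the series. KP mice are a model of lung adenocarcinoma in which Cre recombinase starts tumours in the cells it reaches, among other steps by removing the tumour suppressor Trp53. Both samples are labelled female and of the C57BL/6J strain, and adenovirus carrying Cre had been placed in the trachea 88 to 92 days before the RNA was taken. Which promoter drove Cre in the virus was not given in the sources used here. Labels name 1 mouse for each of replicates 1 and 2 but not how many tumours were pooled or how much normal lung was included. Whether the 2 samples came from separate animals is not spelled out, so the spread between them may be partly technical. The description covers all genes measured, and no comparison with another genotype was made.

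The question was which cell lineages, secreted products and pathways gave the brightest signals in these tumours, and how far the 2 arrays agreed. Each array carried 59305 spots without controls, standing for 56605 probes, and 34799 probes were well above background on both arrays. Through their accessions 34565 probes were assigned to 23786 genes. Of these genes 16097, or 67.7%, were above background on both arrays with at least 1 probe. A further 265 genes were above background on replicate 1 alone, 726 on replicate 2 alone and 6695 on neither, while for 3 genes different probes were detected on different arrays. No spot was saturated. Each gene is given by its brightest probe, as log2 of the signal minus the array's 75th percentile, so that 0 is the level exceeded by 1 spot in 4, and an increase of 1 is a 2-fold brighter signal. The 75th percentiles were 553 and 664 intensity units in replicates 1 and 2.

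Probes bind with different strength, so the brightness of a gene's probe is not an amount of RNA that can be set against another gene's. Among 5838 genes with several probes above background, the brightest probe and the next differed by a median of 2.24 on the log2 scale, and by over 5 for 572 genes. For this reason genes are placed by the position of their probe in the whole distribution, where the top 1% means the brightest 1% of the 16097 genes, and lineages are described by lists of genes rather than by single probes. The median of a list covers only its members above background on both arrays, so undetected members do not lower it. In a bulk sample, fewer cells of a type and less RNA per cell cannot be told apart.

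Lung adenocarcinomas of KP mice arise largely from alveolar type 2 cells, the cells that make and secrete pulmonary surfactant. Their identity is held by the transcription factor Nkx2-1, and tumours that lose it can take on features of the stomach and gut under factors such as Hnf4a. As such tumours advance, cells may also express embryonic genes such as Hmga2, a chromatin protein of the embryo. Tumour tissue further holds macrophages, other immune cells, vessels, fibroblasts and remnants of airway and alveoli, and the RNA of all of them is mixed in the sample.

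The alveolar type 2 programme gave the brightest lineage signal. All 23 genes of its list were above background on both arrays, 20 stood in the brightest 20% and 7 in the top 1%. Their median position was the top 5.27%, where the midpoint of all genes would be the top 50%. Sftpc, which encodes surfactant protein C, had the brightest probe of all genes that are neither ribosomal nor predicted, at 9.12 in replicate 1 and 8.97 in replicate 2 (mean 9.05 ± 0.11, SD, n = 2). Sftpd, the lectin surfactant protein D, read 8.43 and 8.33, and Sftpb, which spreads the lipid film, read 8.02 and 7.60. The surfactant protein A gene Sftpa1 read 6.57 and 7.51, so its arrays were further apart than those of the other surfactant proteins. Ctsh, a cathepsin that processes surfactant proteins, read 7.87 and 7.93. Among Sftpc, Sftpb, Sftpd and Ctsh the arrays were furthest apart for Sftpb, by -0.42 as replicate 2 minus replicate 1, the direction of all differences below.

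Genes of surfactant lipid handling were bright as well. Abca3, the transporter that loads lipid into lamellar bodies, read 6.60 and 6.52, and Lamp3, a lamellar body membrane protein, read 5.94 and 6.62. The master regulator Nkx2-1 stood at 3.46 and 3.40, and the factor Etv5, which maintains type 2 cells, at 4.65 and 4.56. Lipid and sterol synthesis, which supplies surfactant as well as membranes, had all 28 of its genes above background with a median position in the top 18.3%. Fasn, the fatty acid synthase, read 6.64 and 6.67, and the elongase Elovl1 read 6.83 and 7.11. The lowest type 2 member was Egfl6, at 0.27 and 0.15, still close to the median of all genes.

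Flat alveolar cells were represented as well. All 16 genes of the alveolar type 1 list were above background, 8 of them in the brightest 20%, with a median position in the top 25.9%. Ager, a receptor on the basal face of type 1 cells, read 7.80 and 7.40 and stood in the top 0.404%, and its further probes differed by -0.36 to -0.14 between the arrays. Aqp5, a water channel, read 6.33 and 5.88, and Pdpn, a membrane glycoprotein, read 4.33 and 4.26. At the lower end, Sema3e read -2.13 and -2.43. Type 1 genes thus ranged from the top 1% of the array to below its median. Whether the type 1 signal came from tumour cells or from alveoli next to the tumours was not tested.

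**Figure D1:**
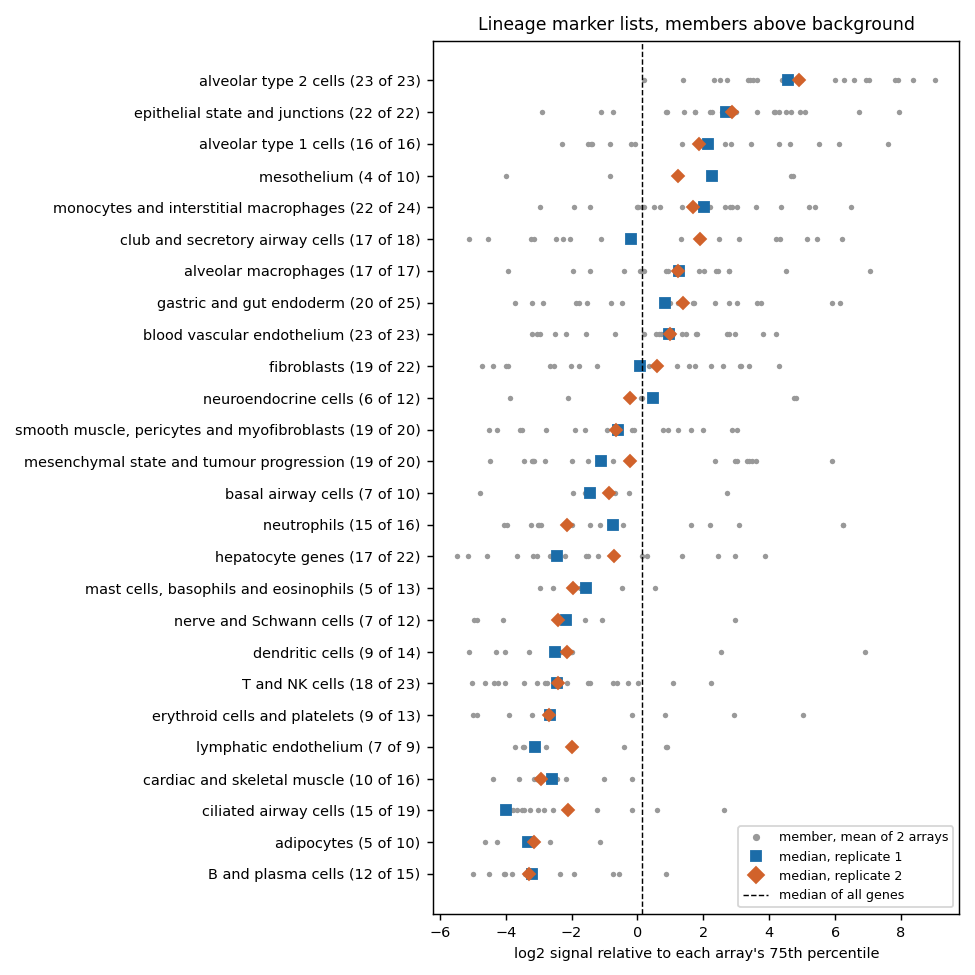
Levels of 26 lineage lists, with the log2 signal relative to each array's 75th percentile on the x axis and a list per row, ordered by the median of its members. Grey points are members (mean of 2 arrays), blue squares and orange diamonds the median in replicates 1 and 2, and the numbers in brackets the members above background on both arrays out of those with a probe. Alveolar type 2 genes lie furthest right, and B cell, adipocyte and ciliated cell genes furthest left.

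Epithelial genes were bright as a group. All 22 members of the epithelial and junction list were above background, 12 in the brightest 20%, with a median in the top 17.0%. The simple-epithelium keratins stood out, with Krt18 at 8.40 and 7.49 and its partner Krt8 at 7.21 and 6.26, so that both were brighter in replicate 1. Claudin 3 of the tight junction, encoded by Cldn3, read 5.03 and 5.15, and Cdh1, the E-cadherin gene, read 3.68 and 3.60. Epcam, an epithelial adhesion molecule, read 1.91 and 1.57.

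The list of mesenchymal and progression genes was dimmer, with 19 of 20 genes above background on both arrays and a median position in the top 60.7%. Fn1, the fibronectin gene, read 6.27 and 5.53 with its brightest probe, while its second probe had a mean of 1.31. Lgals1, a galectin, read 4.07 and 3.11. Vim, the intermediate filament of mesenchymal cells, read 3.49 and 3.47. The factors that drive loss of epithelial form were dimmer, with Snai2 at -3.24 and -3.12 and Zeb1 at -2.95 and -2.68, and Twist1 was above background in replicate 1 alone. Hmga2 separated the arrays, at -2.74 in replicate 1 and -0.24 in replicate 2, and its second probe differed by 1.95 the same way. Snai2, Zeb1 and Hmga2 all stood below the median of all genes.

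Gastric and gut genes formed a mixed group, with 20 of 25 above background on both arrays and a median in the top 37.1%. Gkn2, a gastrokine of the stomach surface that is also made in lung, read 6.20 and 6.09, and Pigr, which carries antibodies across epithelia, read 5.87 and 5.95. Hnf4a read 3.88 and 3.35 with its brightest probe, but its second probe had a mean of only -2.10, so its position in the distribution depends on the probe. Not above background on either array were Hnf4g, Gkn1, Cdx2, the intestinal master regulator, and Muc6, a stomach mucin. The list therefore held both some of the brightest and some undetected genes of the array.

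Among airway lineages, club cell genes were the brightest. Of the 18 genes of the club and secretory list 17 were above background on both arrays, with a median in the top 34.3% and 7 in the brightest 20%. Scgb1a1, the main secretoglobin of club cells, read 5.92 and 6.52, and Muc5b, the mucin of airway mucus, read 5.25 and 5.66. Basal cell genes were dim, with Krt5 at -4.93 and -4.66 and with Krt15 and Dsg3 not above background on either array, although Trp63 read 2.59 and 2.82. Of 12 neuroendocrine genes 6 were above background on both arrays, and Chga, Chgb, Resp18, Insm1 and Scg2, genes of secretory granules and their regulator, were detected on neither. Snap25 and Cplx2 of the vesicle release machinery were nonetheless in the brightest 20%, at 4.62 and 4.85 and at 4.77 and 4.87. Snap25 and Trp63 each had a single probe above background on both arrays, so neither value has a second probe beside it.

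Macrophage genes led the immune lineages. Of the 17 alveolar macrophage genes all were above background, with a median in the top 35.6%. Chil3, a chitinase-like protein secreted by these cells, read 7.46 and 6.66, and Ear2, an eosinophil-associated ribonuclease, read 4.53 and 4.48. Among 24 genes of monocytes and interstitial macrophages 22 were above background on both arrays, with a brighter median, in the top 28.3%. Apoe, a lipid carrier that macrophages and type 2 cells make, read 6.58 and 6.38, and Itgam, an adhesion receptor chain of myeloid cells, read 5.05 and 5.38 with its brightest probe, but its second probe had a mean of -4.66. The scavenger receptor gene Cd163 was not above background on either array. The pan-leukocyte gene Ptprc read 0.21 and 0.49, near the median of all genes.

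Lymphocyte genes were dim. The T and NK cell list had 18 of 23 genes above background on both arrays with a median in the top 77.4% and none in the brightest 20%. Cd247, a signalling chain of the T cell receptor, read 2.49 and 1.96, whereas Cd3e read -0.46 and -0.76. Cd8a, Ncr1 and Klrb1c, markers of cytotoxic T and NK cells, were not above background on either array. Over members above background on both arrays, the B and plasma cell list had the lowest median of all 55 lists, in the top 85.2%. That median rests on 12 of 15 genes with a probe. Some lists lost more members to background, with 5 of 10 adipocyte genes counted and 5 of 13 genes of mast cells, basophils and eosinophils. The ranking therefore leaves undetected genes out. The brightest B and plasma cell member, Cd79b of the B cell receptor, read 0.33 and 1.40. Dendritic cell genes had a median in the top 76.3%, although Siglech, a lectin of plasmacytoid dendritic cells, read 6.92 and 6.87. Those values come from its only probe above background on both arrays. The other dendritic members above background on both arrays lay between -5.38 for Zbtb46 and 2.58 for Itgax.

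Vessels and stroma lay near the middle of the distribution. All 23 genes of blood vascular endothelium were above background with a median in the top 41.8%. Egfl7, secreted by endothelial cells, read 4.30 and 4.08, and Aqp1, an endothelial water channel, read 3.95 and 3.66. The single probe of Pecam1 above background on both arrays had a mean of -2.16 ± 0.22 (SD, n = 2). Of 22 fibroblast genes 19 were above background on both arrays, with a median in the top 47.2%. The type I collagen gene Col1a1 read 3.07 and 2.13 (mean 2.60 ± 0.66, SD, n = 2), and its 2 further probes were also brighter in replicate 1, with differences of -0.75 and -0.74. Adipocyte genes, cardiac and skeletal muscle genes, ciliated cell genes and lymphatic endothelial genes had medians between the top 80.1% and the top 84.2%. Adipoq and Plin1 of fat cells were not above background on either array. Erythroid RNA was present, with the globin gene Hba-a1 at 4.97 and 5.07.

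Among secreted products the list of defence proteins had the highest median. The list of antimicrobial and acute-phase proteins had 24 of 27 genes above background on both arrays, 4 in the top 1%, and a median in the top 14.6%. Wfdc2, a protease inhibitor of lung epithelium, read 8.09 and 7.95, and Hp, which binds free haemoglobin, read 8.05 and 6.72. Chil1, a chitinase-like protein, read 6.67 and 7.18, and Lcn2, which withholds iron from bacteria, read 5.89 and 6.61. In the complement list Clu, a secreted chaperone that also restrains complement, was in the top 0.0186% at 8.97 and 8.56, and C3, the central complement component, read 5.09 and 5.26. Epithelium, macrophages and liver all make proteins of these lists, so the lists name products and not cells.

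Matrix genes were uneven. All 31 genes of matrix glycoproteins and proteoglycans were above background, 14 in the brightest 20%, with a median in the top 21.9%. Sparc, a collagen-binding protein, read 7.34 and 7.33, and Spp1, the osteopontin gene, read 6.41 and 6.00. Collagens were dimmer, with 23 of 24 above background on both arrays and a median in the top 48.6%, led by Col18a1 of vessel basement membranes at 5.42 and 4.89. All 40 proteases and inhibitors were above background, with Ctsd and Ctsb, lysosomal cathepsins, at 6.72 and 5.99 and at 6.42 and 5.95. The basement membrane collagen gene Col4a1 read 3.30 and 3.11, Col4a3 had a mean of -1.40 ± 0.30 (SD, n = 2), and the matrix metalloprotease gene Mmp7 read -4.89 and -4.80.

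Cytokines were mostly dim. Of 36 interleukins and other cytokines 24 were above background on both arrays and 11 on neither, the latter including Il2, Il4, Il10, Il17a and Ifng. The median of those measured was in the top 74.7%. In the brightest 20% were Mif, a macrophage inhibitory factor, at 5.66 and 5.03, Il33, an alarmin stored in nuclei, at 4.43 and 3.56, and Il34, a ligand of the macrophage receptor Csf1r, at 3.01 and 2.75. Among 32 chemokines 26 were above background on both arrays, and Ccl6 read 5.71 and 5.33 and Cxcl15, made by lung epithelium, 4.79 and 5.11. Growth factors had 36 of 39 genes above background on both arrays with a median in the top 48.4%, led by Bmp4 at 5.60 and 5.51. Igfbp7, which binds insulin-like growth factors, read 6.89 and 6.65 and stood apart from the other binding proteins, whose list had a median in the top 62.9%.

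Housekeeping and metabolic programmes took the top of the distribution. The 38 ribosomal and elongation factor genes had a median in the top 0.674%, and ribosomal genes were 37 of the brightest 100 genes. All 29 oxidative phosphorylation genes were above background with a median in the top 5.53%, led by Cox8a at 6.94 and 6.20. The brightest 100 genes held 24.9% of the summed signal in replicate 1 and 23.2% in replicate 2, and 91 of 100 were shared. Other lists in the brightest 20% by their median were NRF2 antioxidant targets (top 8.49%), MHC class I (9.63%), the unfolded protein response and secretory pathway (10.6%), glycolysis and hypoxia response (13.9%) and MHC class II (16.3%). Of the NRF2 targets, the ferritin genes Ftl1 and Fth1 read 8.40 and 8.09 and 7.82 and 7.19, whereas Nqo1, an often used marker of NRF2, read -2.21 and -2.22. In all, 11 of 55 lists had a median in the brightest 20%.

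Some of the brightest probes had dim partners on the same gene. Of the 40 brightest genes that are neither ribosomal nor predicted, 20 had a further probe above background, and for 11 the dimmest such probe was more than 5 lower. Elk1, for example, read 8.80 and 8.66 with its brightest probe, while its other probe above background had a mean of -2.01. Ttc38 read 8.70 and 8.59 against -1.82 for its second probe, and Med16 read 8.65 and 8.63 against -2.94. These genes were therefore bright by 1 probe and dim by another.

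The tumour suppressor of the model was dim, and the growth pathways lay in the middle. Trp53 read -3.35 and -3.50, in the top 85.8%, and which part of the gene its probe covers was not examined. All 28 genes of RAS-MAPK output were above background with a median in the top 26.5%. The feedback phosphatase Dusp6 read 4.88 and 5.10, and Ccnd1, the cyclin that starts the cell cycle, read 5.15 and 4.89. Of 26 p53 targets 25 were above background on both arrays with a median in the top 42.6%. Cdkn1a, which encodes p21, read 1.36 and 0.26 with its brightest probe, but its second probe had a mean of -5.10 and differed by -0.03. Proliferation genes lay near the median of all genes, at the top 45.2% for DNA replication and 52.7% for mitosis, with Mki67 at 2.23 and 1.96.

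The TGF-beta list, of the pathway named in the study's title, had all 28 genes above background and a median in the top 35.8%. Its ligand genes Tgfb1, Tgfb2 and Tgfb3 read -0.91 and -0.60, -0.80 and -0.70, and 0.52 and 0.10, close to or below the median of all genes. The receptor gene Tgfbr2 read 3.19 and 3.29, and Smad3 and Smad4, which carry the signal to the nucleus, read 2.47 and 2.17 and 2.55 and 2.58. Ltbp3, which binds latent TGF-beta, had the brightest probe of the list at 4.20 and 3.75. Cd109 itself, a membrane co-receptor that restrains TGF-beta signalling, read -3.69 and -4.65 (mean -4.17 ± 0.68, SD, n = 2), in the top 91.8%. It was thus above background on both arrays but near the lower end of the genes measured.

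The arrays agreed closely over most genes. Across the 16097 genes the levels correlated with Pearson's r of 0.981 and Spearman's rho of 0.982, where genes are not independent replicates. Replicate 2 minus replicate 1 had a median of -0.04, an SD of 0.56 and a median absolute size of 0.27, and 93.7% of genes lay within 1. On the log2 scale, 1008 genes were at least 1 apart, or 6.26% of those measured, with 476 (2.96%) higher in replicate 2 and 532 (3.3%) higher in replicate 1. At least 2 apart were 163 genes, of which 90 were higher in replicate 2, and at least 3 apart were 38. With 1 array on each side these counts have no test. The split between the directions depends on the scaling: 47.2% of the genes apart were higher in replicate 2 here, 37.6% when arrays were scaled to their median spot and 75.1% with the authors' processed values. The latter shift the median difference of all genes to 0.24, so differences are read below against the median of all genes.

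**Figure D2:**
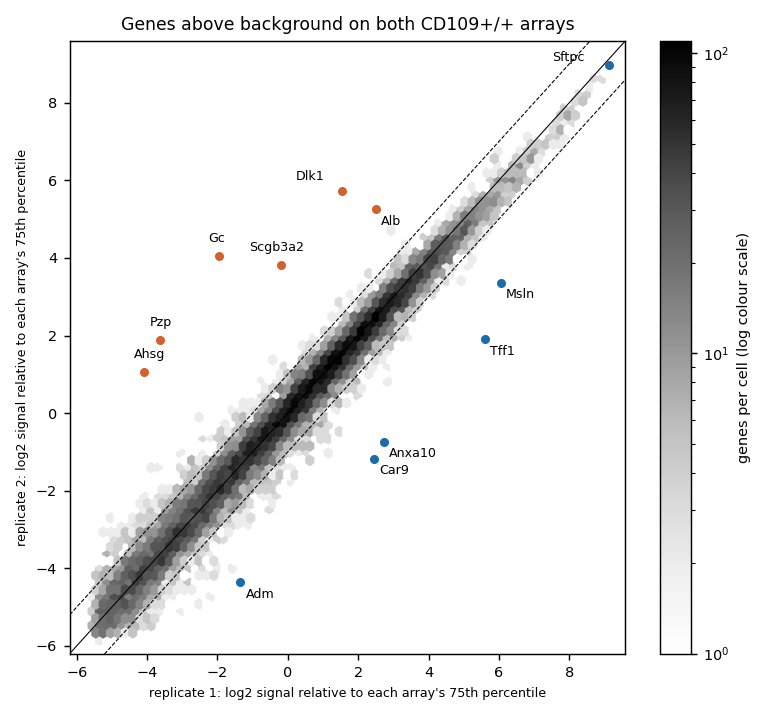
Replicate 1 (x axis) against replicate 2 (y axis), both as log2 signal relative to the array's 75th percentile, for the 16097 genes, with darker cells holding more genes on a log colour scale. The solid line marks equal signal and the dashed lines a difference of 1, and named genes are coloured orange where brighter in replicate 2 and blue where brighter in replicate 1. Most genes follow the solid line, with Gc, Pzp, Ahsg and Dlk1 far above it and Tff1, Car9 and Anxa10 far below.

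Repeated spots show the error within an array, without that of labelling or hybridisation. For 300 probes printed 10 times on each array, the spots of a probe had a median SD of 0.0553 in replicate 1 and 0.0594 in replicate 2, while the 294 such probes above background on both arrays differed between the arrays by a median of 0.38. A second probe often agreed in direction: of 200 genes at least 1 apart with a second probe above background, it pointed the same way for 188 and was itself at least 1 apart for 109, against 1 gene in which it was at least 1 apart the opposite way. Dim genes were apart more often, with 3.07% in the brightest 20% of genes and 10.8% in the dimmest.

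Replicate 2 was brighter for liver-type secreted proteins. Gc, the vitamin D binding protein, read -1.97 in replicate 1 and 4.06 in replicate 2, a 65.0-fold difference. Pzp, a broad protease inhibitor of plasma, read -3.64 and 1.89, and Ahsg, the fetuin A gene, read -4.09 and 1.06. The albumin gene Alb read 2.49 and 5.26, and its second probe differed by 3.18 the same way. Of 17 hepatocyte genes above background on both arrays, 7 were at least 1 higher in replicate 2, beside 2.96% of all genes. None was at least 1 higher in replicate 1, beside 3.3% of all genes. The other members were close between the arrays, so the list's median difference was 0.02. Among the 17 genes, 6 stood in the dimmest 20% of all genes, where 10.8% of genes were apart in either direction.

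Further plasma proteins were above background in replicate 2 alone. Serpina1a, an antitrypsin gene, was at least 94.4-fold brighter there and Apoa1, the main protein of high-density lipoprotein, at least 37.9-fold, each taken against the higher of the probe's own signal and the dimmest signal well above background on the replicate 1 array. The antitrypsin genes are near-identical copies, and their probes may not tell them apart. Other liver genes were undetected or close between the arrays. Cps1, a urea cycle enzyme of hepatocytes, was not above background on either array. Otc, another urea cycle enzyme, read -3.18 and -3.17. The plasma protein genes Fetub and Hpx read 3.22 and 2.71 and 0.35 and -0.09, so not all secreted liver proteins were brighter in replicate 2.

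Gc, Pzp and Alb were picked from these genes as examples, and the others were not counted as a group for the letters below. The start regions of these 3 genes show letters that the 3 share. They are RefSeq promoters of assembly GRCm38.p6, running from 250 bases before to 50 after the gene's start on its own strand, with GTTAAT or its reverse complement ATTAAC in capitals, letters that were chosen after the data were seen.
Gc (chr5:89457849-89458148, - strand): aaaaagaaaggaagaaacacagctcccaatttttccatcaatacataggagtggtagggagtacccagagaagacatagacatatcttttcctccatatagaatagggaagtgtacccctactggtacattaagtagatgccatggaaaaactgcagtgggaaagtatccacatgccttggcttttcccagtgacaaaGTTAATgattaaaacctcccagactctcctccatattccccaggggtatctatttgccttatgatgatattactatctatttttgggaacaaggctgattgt
Pzp (chr6:128526671-128526970, - strand): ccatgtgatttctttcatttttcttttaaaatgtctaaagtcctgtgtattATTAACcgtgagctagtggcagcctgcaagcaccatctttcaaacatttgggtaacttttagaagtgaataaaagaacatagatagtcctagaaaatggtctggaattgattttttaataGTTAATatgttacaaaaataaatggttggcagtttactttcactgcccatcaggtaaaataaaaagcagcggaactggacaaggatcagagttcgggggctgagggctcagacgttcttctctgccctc
Alb (chr5:90460620-90460919, + strand): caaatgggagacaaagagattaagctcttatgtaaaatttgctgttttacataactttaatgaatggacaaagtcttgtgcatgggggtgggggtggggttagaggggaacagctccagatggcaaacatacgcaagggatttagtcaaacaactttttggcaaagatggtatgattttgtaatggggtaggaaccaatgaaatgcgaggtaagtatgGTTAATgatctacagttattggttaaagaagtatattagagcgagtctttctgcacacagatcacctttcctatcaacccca
Searched on both strands, GTTAAT was present in 8.24% of 27025 promoters of all genes and in 6.22% of the 12739 promoters of genes above background. It was present in 13 of the 68 promoters of genes at least 2 higher in replicate 2 (19.1%) and in 4 of 50 for genes at least 2 higher in replicate 1 (8%). For genes at least 1 higher the counts were 43 of 371 (11.6%) in replicate 2 and 26 of 385 (6.75%) in replicate 1. Gc, Pzp and Alb, whose sequences are printed above, are among the 13 and the 43. The replicate 2 shares are therefore not independent of the choice of letters. Dim genes held it more often, with 8.40% in the dimmest 20%. TATAA, searched on the gene's strand from 40 to 20 bases before the start, was found in 3.83% of promoters of genes above background, in 17.6% of those at least 2 higher in replicate 2 and in 14% of those at least 2 higher in replicate 1. For genes at least 1 higher these shares were 9.70% and 8.83%. A match of letters is a description of these windows and not a site of binding.

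Dlk1 and some chromosomal neighbours of genes far apart were also brighter in replicate 2. Dlk1, an imprinted membrane protein of fetal tissue that also stands in the type 2 list, read 1.53 and 5.71, and its second probe differed by 4.59. Beside it on the chromosome, the noncoding Meg3 read 6.28 and 7.67, and its 3 further probes differed by 1.63 to 2.34 in the same direction. Neighbours in the Hoxb cluster of body patterning genes were apart together, with Hoxb4 at -2.52 and 0.65, Hoxb3os at -5.16 and 0.11 and Hoxb2 at -3.23 and -0.53. The liver and gut factor Onecut2 read -0.09 and 2.55. Meg3, Hoxb4 and Hoxb2 were picked out after their values were seen, as neighbours of genes that were furthest apart.

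Airway genes were brighter in replicate 2 as well. The ciliated list had the highest median difference of all lists, 0.84 against -0.04 for all genes, with 6 of 15 genes at least 1 higher in replicate 2, beside 2.96% of all genes, and none in replicate 1. With normexp background correction that median was 0.48, below those of MHC class II and interferon-stimulated genes. Of the 15 genes 9 were among the dimmest 20%, where 10.8% of genes were apart in either direction. Foxj1, the master regulator of cilia, read -5.22 and -2.34, and Fam183b, a protein of cilia, read -5.40 and -1.47. Rsph4a and Sntn, also genes of cilia, were not above background on either array. Club and secretory genes had a median difference of 0.60, with 7 of 17 at least 1 higher in replicate 2 and 2 in replicate 1. Scgb3a2, a secretoglobin, read -0.20 and 3.83, and Cbr2, a club cell carbonyl reductase, read 3.85 and 6.42 with a second probe 3.10 apart. In contrast Scgb1a1 differed by 0.60 and Cyp2f2, a club cell cytochrome, read 4.07 and 4.34.

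Immune recognition genes were shifted by smaller amounts across most members. Interferon-stimulated genes had a median difference of 0.60, beside -0.04 for all genes. Of these 26 genes 24 were higher in replicate 2, and 5 were at least 1 higher, beside 2.96% of all genes. Among all genes more were higher in replicate 1 than in replicate 2, as their median of -0.04 shows. Ifit1, an antiviral RNA binding protein, read -3.00 and -1.35, and Oas1a, which senses double-stranded RNA, read 0.37 and 1.78. MHC class II genes had a median difference of 0.63, with 11 of 12 higher in replicate 2, led by H2-Aa at 2.27 and 3.59. Only 2 of the 12 were at least 1 higher, beside 2.96% of all genes. For MHC class I and the immunoproteasome the median was 0.44, with 15 of 18 higher in replicate 2. B2m, the light chain of class I, read 4.22 and 5.36 and was the only member of that list at least 1 apart. The lymphatic list had a median of 0.71 over 7 genes, led by Prox1, the lymphatic master regulator, at -4.97 and -1.97. Flt4, the lymphatic growth factor receptor, was not above background on either array, and Lyve1 read -0.33 and -0.48, so the lymphatic markers did not move together.

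Replicate 1 was brighter for glycolysis and the hypoxia response, the programme that cells switch on through HIF when oxygen is short. The median difference was -0.81, the lowest of all lists, beside -0.04 for all genes. Of 28 genes 27 were higher in replicate 1, and 7 were at least 1 higher, beside 3.3% of all genes. One-sidedness alone was not particular to this list, as the brightest 20% of all genes had a median of -0.15. Higher in replicate 1 were also 37 of 38 ribosomal genes (median -0.32), 26 of 28 mitosis genes (-0.31) and 22 of 25 DNA replication genes (-0.37). The same held for 20 of 23 NRF2 targets (-0.25). Car9, a carbonic anhydrase of hypoxic cells, read 2.46 in replicate 1 and -1.18 in replicate 2, a 12.5-fold difference, and its second probe differed by -2.45. Adm, the vasodilator adrenomedullin, read -1.35 and -4.36. The lactate exporter gene Slc16a3 read 2.95 and 1.27, and Ndrg1, a stress gene, read 5.54 and 3.83. Of the enzymes of glycolysis, Gapdh read 7.75 and 6.89 with further probes apart by -0.83 to -0.68, and Pgam1 read 5.08 and 3.90. P4ha1, a collagen prolyl hydroxylase, was the exception at -0.03 and 0.17. Over the 9 other ways of processing the values the list's median lay between -0.90 and -0.53.

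Single genes of other lists were at least 1 higher in replicate 1 without their list. Angptl4, a lipase inhibitor, read 4.39 and 2.62. F3, the tissue factor gene that starts clotting, read 4.45 and 2.61, and Fosl1, an AP-1 subunit that follows RAS signalling, read -1.31 and -3.17. The lists that hold F3 and Fosl1, YAP and TEAD targets and RAS-MAPK output, had median differences of 0.08 and 0.04. Vegfa, the vessel growth factor, read 3.86 and 3.36, less than 1 apart. The proliferation lists had median differences of -0.31 for mitosis and -0.37 for DNA replication, beside -0.04 for all genes. None of their genes was at least 1 apart, beside 6.26% of all genes.

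**Figure D3:**
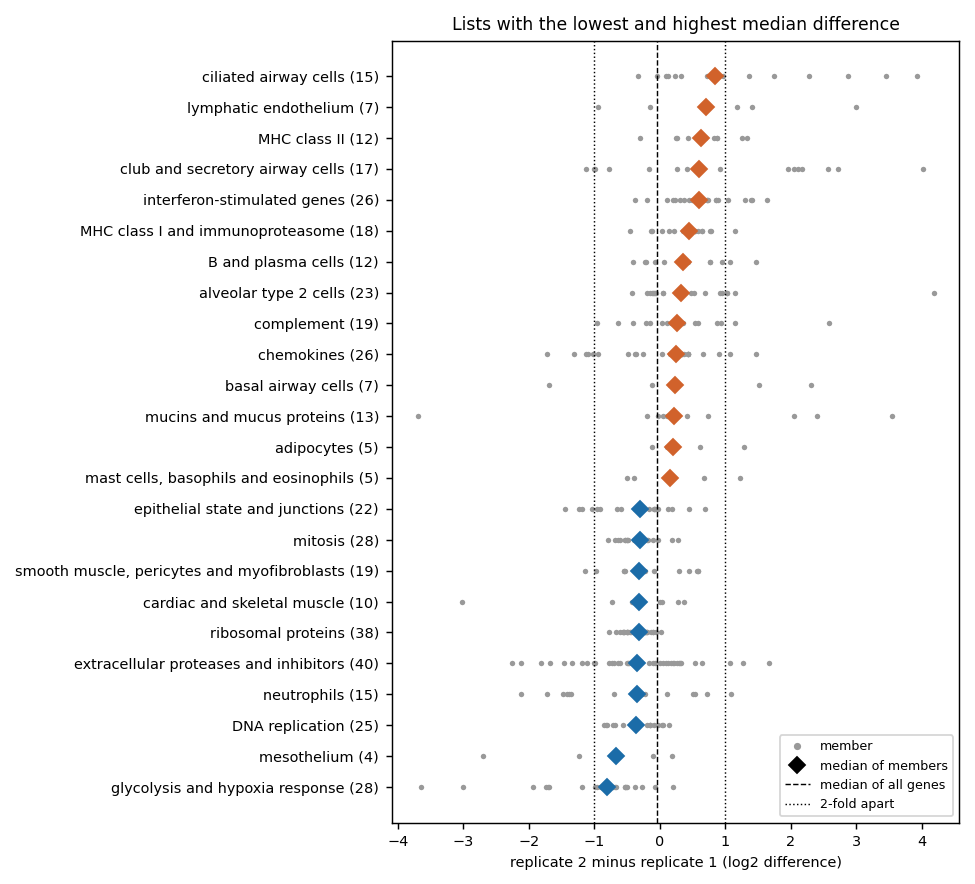
Replicate 2 minus replicate 1 (x axis, log2) for the 10 lists with the lowest and the 14 with the highest median difference, a list per row with its number of genes above background on both arrays in brackets. Grey points are genes, diamonds the median of a list, the dashed line the median of all genes and the dotted lines a 2-fold difference. Glycolysis and hypoxia genes lie left of the all-gene median almost without exception, while ciliated and club cell genes spread to the right.

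Several stomach and foregut genes were brighter in replicate 1, but not all. Tff1, a stomach trefoil peptide, read 5.61 and 1.91, a 13.0-fold difference, and Anxa10, an annexin of gastric epithelium, read 2.73 and -0.75. Ctse, a gastric cathepsin, read 3.60 and 1.95, and Pdx1, the factor of the foregut and pancreas, read -2.45 and -4.98. Msln, the mesothelin gene, read 6.06 and 3.36. On the other side, Tff3, the intestinal trefoil peptide, read -3.54 and 0.01, and Fabp1, a fatty acid carrier of liver and gut, read -1.20 and 0.28. Of 20 gastric and gut genes, 4 were at least 1 higher in replicate 1 and 3 in replicate 2, beside 3.3% and 2.96% of all genes. The median difference of these genes was -0.09. The mesothelial list had a median of -0.67, but only 4 of its genes were above background on both arrays, among them Msln and the keratin Krt19. Its defining genes Wt1, Lrrn4 and Bnc1 were not above background on either array.

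**Figure D4:**
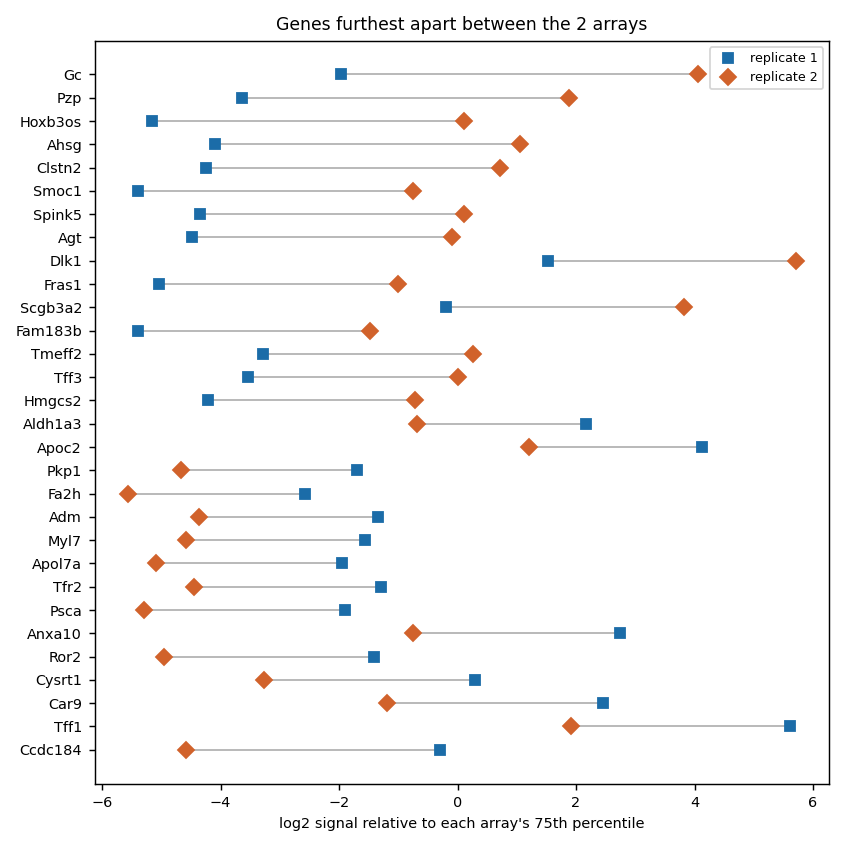
The 15 genes furthest apart in each direction, leaving out predicted genes, with the log2 signal relative to the array's 75th percentile on the x axis. Blue squares are replicate 1 and orange diamonds replicate 2, joined by a line. Gc is at the top with -1.97 and 4.06, and Ccdc184 at the bottom is brighter in replicate 1.

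Keratin genes differed in both directions, and part of the neutrophil genes were brighter in replicate 1. Krt7 read 5.22 and 3.77 and Krt19 5.29 and 4.06, both keratins of ductal epithelium. Krt14 and Krt17, keratins of basal cells, were brighter in replicate 2 at -1.45 and 0.07 and at -3.10 and -0.79. Of the epithelial list, 4 of 22 genes were at least 1 higher in replicate 1 and none in replicate 2. Of 15 neutrophil genes 6 were at least 1 higher in replicate 1 and 1 in replicate 2, beside 3.3% and 2.96% of all genes. S100a9, a calcium-binding protein that fills neutrophils, read 3.77 and 2.40, and Mmp9, a gelatinase, read -2.91 and -5.02. Ly6g, the defining surface marker, read -0.75 and -2.13, while Csf3r, the receptor for granulocyte growth factor, read 6.17 and 6.28. The iron-binding Ltf went the other way, at 1.67 and 2.76.

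Macrophage genes differed in both directions. Car4, a carbonic anhydrase of alveolar macrophages and capillaries, read -0.96 and 1.38, and Retnla, a product of alternatively activated macrophages, read 2.94 and 5.02. The platelet and macrophage chemokine gene Pf4 read 3.01 and 5.74, although Ppbp, another platelet gene, read -3.01 and -4.77. Cidec, a lipid droplet protein, read -0.85 and -3.10, and the scavenger receptor gene Marco read 2.84 and 1.23. The median difference of the alveolar macrophage list was -0.05, beside -0.04 for all genes. Lyz2, the myeloid and type 2 cell lysozyme, read 2.93 and 4.59.

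The type 2 programme was shifted towards replicate 2 in part of its members. Its median difference was 0.32 beside -0.04 for all genes, with 4 of 23 genes at least 1 higher in replicate 2 (Dlk1, Napsa, Hc and Lgi3), beside 2.96% of all genes. Napsa, the aspartic protease that trims surfactant protein B, read 3.87 and 4.89, and its second probe differed by 1.21. Hc, complement component 5, read 2.13 and 3.29, and Lgi3 differed by 1.02. None was at least 1 higher in replicate 1. Sftpa1 differed by 0.94 and Ctsc, a lysosomal protease, by 0.92, whereas Nkx2-1 differed by -0.06 and Sftpc by -0.15, the last pair less than the median absolute difference of all genes.

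Differences also followed the chromosome on which a gene lies, a pattern looked for after the data were seen. The order of genes was taken from the RefSeq table. On chromosome 19 the median of 570 genes was -0.39, and 80.5% of them were higher in replicate 1. On chromosome 15 the median of 658 genes was -0.29, with 78.4% higher in replicate 1, and on chromosome 11 the median of 1330 genes was 0.16, with 66.4% higher in replicate 2. The other 17 chromosomes had medians between -0.17 on chromosome 3 and 0.08 on X. On chromosome 3, 68.1% of genes were higher in replicate 1, so one-sided differences were not limited to chromosomes 19, 15 and 11. With the second brightest probe of each gene the medians were -0.39, -0.23 and 0.23 for chromosomes 19, 15 and 11.

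The shifts ran along the whole of these chromosomes. In windows of 40 neighbouring genes, 100% of the windows on chromosomes 15 and 19 had a median below that of all genes, with values from -0.65 to -0.11 on 15 and from -0.61 to -0.07 on 19. On chromosome 11 only 1.47% of windows were below it. Other chromosomes were one-sided to a lesser degree, with 92.5% of windows below it on chromosome 3, 87.1% on 5, 80.5% on 17 and 9.15% on X. The size differed with brightness, at -0.62 in the brightest 20% of genes on chromosome 19 and -0.07 in the dimmest, and at -0.43 and -0.19 on chromosome 15, where the medians of all genes were -0.15 and -0.02. On chromosome 11 it was 0.07 in the brightest 20%, 0.25 in the middle 20% and 0.11 in the dimmest. The interquartile range of chromosome 19 ran from -0.67 to -0.09 and that of chromosome 11 from -0.09 to 0.38. Whether DNA copy number differed between the tumours was not tested, and no measurement of DNA was used here.

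**Figure D5:**
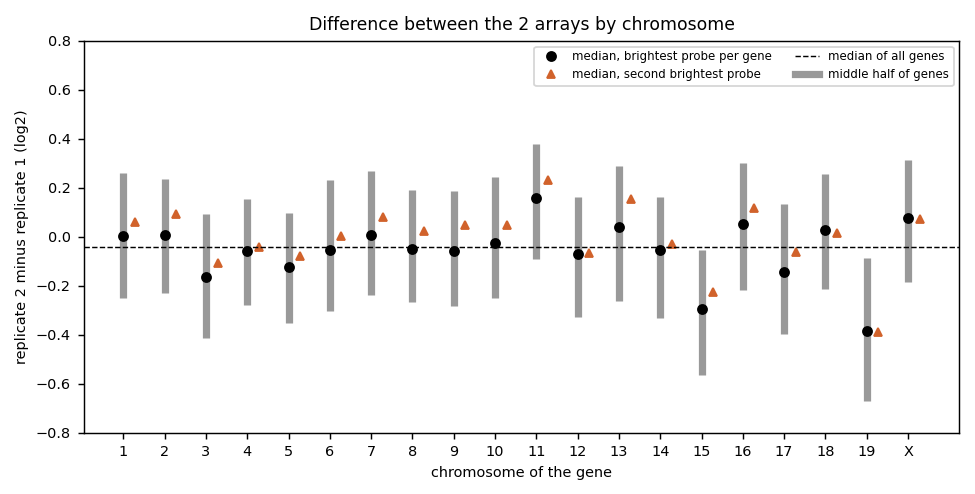
Replicate 2 minus replicate 1 (y axis, log2) by chromosome of the gene (x axis). Black points are the median over the brightest probe of each gene, grey bars run from the lower to the upper quartile, orange triangles are the median over second probes, and the dashed line is the median of all genes. Chromosomes 15 and 19 lie below the line at -0.29 and -0.39, and chromosome 11 above it at 0.16.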

How the data were processed

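Per the labels' protocols, 100 ng of total RNA of each sample was labelled with Cy3 for an Agilent array of 1 colour. The deposited scanner output came from Feature Extraction 12.1.0.3 by Agilent, according to the file headers, and gives linear intensity values. Its processed intensity had been background-subtracted, detrended and held above a floor, per the file headers, with no scaling between arrays. The authors' further table of processed values equalled these intensities times 1 constant per array (1.19 and 1.21 for replicates 1 and 2, column medians 58.8 and 76.1), is linear and not centred, and served as an alternative. The rule behind its constants stays unknown.

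Spots with an outlier mark (58 and 71) and controls were left out, spots of a probe were averaged, and log2 values were taken minus each array's 75th percentile. On the 2 arrays, 64.3% and 67.0% of spots were well above background. A probe was kept when well above background on both arrays, and a gene is its kept probe with the highest mean. Probes were named by unversioned accession through a RefSeq gene table of GRCm38.p6, which left 22038 probes unnamed, 11179 of them above background on both arrays. The array design names build mm9, so no coordinates were taken from it. A signal missing on 1 array is bounded by the higher of its own value there and that array's lowest log2 value among probes well above background.

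With 1 group of 2 arrays there is no test, and the number of arrays limits the precision. The 55 lists hold 1169 genes, of which 1155 had a probe and 1029 were above background on both arrays, and 60 stand in several lists. Named genes were the 40 brightest outside ribosomal and predicted genes, the 4 brightest and 3 furthest apart of each list with its undetected members, the 15 furthest apart each way, and a few fixed genes such as Cd109 and Mki67. Other genes named were chosen after their values were seen. The genes, lists and rules were chosen with earlier results of these data known.

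Alternatives were another detection mark, outlier spots kept, quantile normalization, normexp (offset 50, on median spot and background signals), the median spot or the median gene as the scale, the authors' values, no filter on dim probes and the mean of a gene's probes. Chromosome medians, their second-probe values and promoter letters were added after the data were seen. Python 3.11.15 with pandas 2.3.3 and scipy 1.17.1 and limma 3.58.1 in R 4.3.3 were used, and the scripts were tested on simulated data.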

Additional observations from a re-analysis of the deposited data

How the results depend on the processing

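The count of genes at least 1 log2 apart (1008, of which 476 were higher in replicate 2 and 532 in replicate 1) depended most on the filter and the background. It was 1749 (869 and 880) with the looser detection mark, 2467 (1244 and 1223) with no filter on dim probes, and 522 (199 and 323) with normexp, while the authors' processed values turned the split to 899 and 298. The number of genes above background on both arrays, 16097, became 16365 to 16826 when signal was asked for on either array alone, and the number of lists with a median in the brightest 20% was 11 with either array alone. Without a filter the medians of chromosomes 15 and 19 were -0.28 and -0.31, beside -0.12 for all genes. The main values were -0.29, -0.39 and -0.04, so both chromosomes lay closer to the all-gene median without the filter. The mesothelial list, resting on 4 genes, reversed to a median of 0.40 with the looser mark and 0.88 with no filter, where more genes enter. All 117 named genes at least 1 apart kept their direction under the 9 alternatives, and 93 stayed at least 1 apart with normexp and 102 with the authors' values. Many of these genes were named for being far apart in the same 2 arrays, which the alternatives reprocess. Kept direction is therefore not an independent check. The causes of these shifts were not tested. No paired analysis was possible because only 1 group was described and no test was made. With 2 arrays and probes near background in the dimmest genes, differences there are the least certain.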

Other observations

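Stress genes differed in both directions. Of 23 immediate early and heat shock genes, 4 were at least 1 higher in replicate 2 and 2 in replicate 1, beside 2.96% and 3.3% of all genes. The inducible chaperone genes Hspa1a and Hspa1b read 2.62 and 3.78 and 2.40 and 3.61 in replicates 1 and 2, and their partner Hsph1 read 1.52 and 2.78. The small heat shock gene Hspb1 read 3.35 and 4.45. Fos, an immediate early gene, went the other way at 2.15 and 1.13, while Egr1 read 2.26 and 2.31. The near-identical Hspa1a and Hspa1b may share signal.

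Wnt and Notch genes were mostly of middling signal. Of 26 Wnt genes above background on both arrays, Wnt7b, a ligand of lung epithelium, read 1.51 and -0.47, and Nkd1, a feedback inhibitor, read 1.30 and 2.46. The stem cell receptor gene Lgr5 was above background in replicate 2 alone, and Axin2, a common Wnt target, read -5.38 and -5.17. None of the 18 Notch genes above background on both arrays was at least 1 apart, beside 6.26% of all genes. Hes6, a member of the list, read 2.00 and 2.03, and Rfng, which modifies Notch receptors, read 2.12 and 2.21.

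A few neighbours on a chromosome were apart together. S100a6, S100a8 and S100a9, calcium-binding proteins of 1 gene cluster, read 8.02 and 6.45, 2.34 and 0.93, and 3.77 and 2.40. Mcpt8, Ctsg and Gzme, protease genes of another cluster, read -0.08 and 1.14, -5.44 and -2.60, and 3.49 and 5.05. These genes were picked after their values were seen, and 9 such runs of at least 3 neighbours were found.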
